A study of Mus musculus with 8 samples.

Results

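OX40 ligand, GITR ligand and RANK ligand, with the receptors RANK, TACI and BAFF receptor, are members of the tumour necrosis factor (TNF) superfamily. Their genes are Tnfsf4, Tnfsf18, Tnfsf11, Tnfrsf11a, Tnfrsf13b and Tnfrsf13c. They were read in CD4+CD25+ lymphocytes, a fraction rich in regulatory T cells (Treg). A gene was taken where the platform annotation gave its symbol alone to a probe set. That held for 5 of the 6 genes, each with 1 probe set, out of 6986 genes measured. Tnfrsf13c had none and was not analysed here.

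The cells were sorted from the para-aortic lymph nodes of pregnant mice on day 9.5 post coitus and profiled on Affymetrix Mouse Gene 2.0 ST arrays. There were 4 arrays labelled IL10-/-, from mutants backcrossed to C57BL/6 that drank oxytetracycline at 2 mg/ml against colitis, and 4 arrays labelled IL10+/+, from C57BL/6 mice for which no antibiotic is stated. Antibiotic and genotype therefore cannot be told apart. Each array held RNA pooled from 2 to 4 mice, and the labels do not give the sire of these pregnancies. In pools of sorted cells, fewer cells of a type and less RNA per cell cannot be told apart.

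Ligands of this family are mostly membrane proteins that assemble as trimers and engage receptors on a neighbouring cell, and the receptors recruit TRAF adaptors that switch on NF-kappaB. OX40 ligand and GITR ligand are known mainly from antigen-presenting cells. Their receptors OX40 and GITR are abundant on regulatory T cells. RANK ligand is made by activated T cells and lymph node stroma, and the RANK ligand and RANK pair is required for lymph nodes to form. TACI and BAFF receptor bind the B cell survival factor BAFF. The genes for OX40, GITR and BAFF were not analysed here.

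Il10, the mutated gene, read 9.35, 8.65, 9.42 and 9.25 (log2) in the arrays labelled IL10-/-, and 8.27, 8.51, 8.14 and 7.50 in those labelled IL10+/+. This is opposite to a lost transcript. No source used here says which part of the gene was disrupted. The probe set may read outside it, and every direction below rests on the labels. The Treg genes Ctla4 (means 11.22 in IL10-/- and 11.32 in IL10+/+) and Ikzf2 (11.35 and 11.54) and the leukocyte gene Ptprc (12.61 and 12.70) gave strong signals, while Foxp3, Il2ra, Cd4 and Cd3e were not analysed here. On the first principal component of all genes, which held 31.1% of the variance, IL10-/- replicate 2 (16.6) and IL10+/+ replicate 4 (17.8) lay at one end and IL10+/+ replicate 2 (-13.3) at the other. The remaining 5 arrays lay between -5.58 and -2.72.

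The 250 bases upstream of the RefSeq start sites are shown for Tnfsf18 and Tnfsf11. After group means were subtracted, the levels of these ligand genes ran in opposite directions between arrays, as described further on. The sequences are from RefSeq, build GRCm38.p6, which held entries for 5 of the 6 genes and none for Tnfsf4. Tnfsf18 is at chr1:161494407-161494656 on the plus strand and Tnfsf11 at chr14:78308044-78308293 on the minus strand. Capitals mark matches on either strand to TATAAA, the core of the TATA box, or to GGAAA, the short core bound by NFAT, a factor of T cell activation.
Tnfsf18: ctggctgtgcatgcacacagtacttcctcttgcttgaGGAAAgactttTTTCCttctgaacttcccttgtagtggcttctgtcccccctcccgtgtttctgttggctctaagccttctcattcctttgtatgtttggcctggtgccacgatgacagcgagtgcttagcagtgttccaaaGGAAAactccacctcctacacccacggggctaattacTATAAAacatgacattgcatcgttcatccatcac
Tnfsf11: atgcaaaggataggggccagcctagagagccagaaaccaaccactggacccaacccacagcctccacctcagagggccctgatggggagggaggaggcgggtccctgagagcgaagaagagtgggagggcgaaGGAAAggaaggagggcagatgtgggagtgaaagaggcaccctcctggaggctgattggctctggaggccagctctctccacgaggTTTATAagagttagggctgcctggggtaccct
TATAAA began 34 bases upstream of the start in Tnfsf18, on the gene's own strand, and 32 bases upstream in Tnfsf11, where it was read on the opposite strand. Of all 32851 promoter windows of this length, 12.4% held it. GGAAA, held by 55.6% of windows, was at 3 positions in Tnfsf18, at 1 in Tnfsf11, at 1 in the window of the receptor gene Tnfrsf13b and at 0 in that of Tnfrsf11a. The windows of both receptor genes held TATAAA at 0 positions. The activator protein 1 motif TGACTCA, held by 4.46% of windows, was in none of these 4 windows. These are matches of letters, not sites shown to be bound.

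All 3 ligand genes had higher means in the arrays labelled IL10-/-, by 1.13-fold to 1.27-fold, and none of these differences passed the test. Tnfsf18, GITR ligand, had the largest. It read 5.10, 5.39, 5.03 and 5.09 (log2) in IL10-/- replicates 1 to 4, against 4.46, 5.42, 4.43 and 4.94 in IL10+/+ replicates 1 to 4. Of the IL10+/+ arrays, 3 lay below every IL10-/- array, and replicate 2 lay above all of them, so the groups overlapped. The means were 5.15 ± 0.16 in IL10-/- and 4.81 ± 0.47 in IL10+/+ (SD, n = 4 each). The difference on the log2 scale was 0.34 (SE 0.20, 95% interval -0.11 to 0.79), or 1.27-fold. The test was a linear model per gene with limma, with Benjamini-Hochberg adjustment across the 6986 genes (adjusted p = 0.999). The exact two-sided permutation test over arrays gave p = 0.229, where 0.0286 is the smallest p that 4 against 4 arrays allow. The difference was larger in size than that of 95% of all genes, but by limma p the gene ranked only 810 of 6986.

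Tnfsf4, OX40 ligand, is the next gene to Tnfsf18 on chromosome 1, with 0 annotated genes between them. It read 7.14, 7.09, 7.06 and 6.86 in the arrays labelled IL10-/-, against 6.80, 7.26, 6.58 and 6.77 in those labelled IL10+/+. As for Tnfsf18, IL10+/+ replicate 2 was the highest of all 8 arrays, and the other IL10+/+ arrays lay below every IL10-/- array. The means were 7.03 ± 0.12 in IL10-/- and 6.85 ± 0.29 in IL10+/+ (SD, n = 4 each). The log2 difference of 0.18 (SE 0.14, interval -0.14 to 0.50) did not pass (limma, adjusted p = 0.999; exact permutation p = 0.314).

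Tnfsf11, RANK ligand, had the highest signal of the 5 genes, above every one of 230 olfactory receptor genes on the array. It read 8.73, 8.46, 8.73 and 8.54 in the arrays labelled IL10-/-, against 8.85, 8.19, 8.54 and 8.16 in those labelled IL10+/+. The IL10+/+ arrays held both the highest value, in replicate 1, and the 2 lowest, in replicates 2 and 4. The means were 8.62 ± 0.14 in IL10-/- and 8.44 ± 0.32 in IL10+/+ (SD, n = 4 each). The log2 difference of 0.18 (SE 0.16, interval -0.16 to 0.53) did not pass (limma, adjusted p = 0.999; exact permutation p = 0.371).

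The receptor genes among the measured members had smaller differences than the ligand genes, with intervals that overlapped theirs. Tnfrsf10b, a receptor gene of the family outside the members, differed by -0.46. Tnfrsf11a, which encodes RANK, the receptor of RANK ligand, read 6.67, 6.82, 6.45 and 6.74 in the arrays labelled IL10-/-, against 6.61, 6.47, 6.56 and 6.65 in those labelled IL10+/+. Its IL10+/+ values lay inside the range of the IL10-/- values. The means were 6.67 ± 0.16 in IL10-/- and 6.57 ± 0.08 in IL10+/+ (SD, n = 4 each), and the log2 difference of 0.10 (SE 0.11, interval -0.14 to 0.33) did not pass (limma, adjusted p = 0.999; exact permutation p = 0.314). The interval runs from 0.908-fold to 1.26-fold.

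Tnfrsf13b, which encodes the BAFF and APRIL receptor TACI, was the measured member with a lower mean in the arrays labelled IL10-/-. It read 6.69, 6.47, 6.24 and 6.62 in those arrays, against 6.46, 6.96, 6.62 and 6.51 in the arrays labelled IL10+/+. The lowest array was IL10-/- replicate 3 and the highest IL10+/+ replicate 2, and the other 6 were mixed. The means were 6.50 ± 0.20 in IL10-/- and 6.64 ± 0.23 in IL10+/+ (SD, n = 4 each). The log2 difference of -0.14 (SE 0.14, interval -0.45 to 0.18) did not pass (limma, adjusted p = 0.999; exact permutation p = 0.457).

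**Figure D1:**
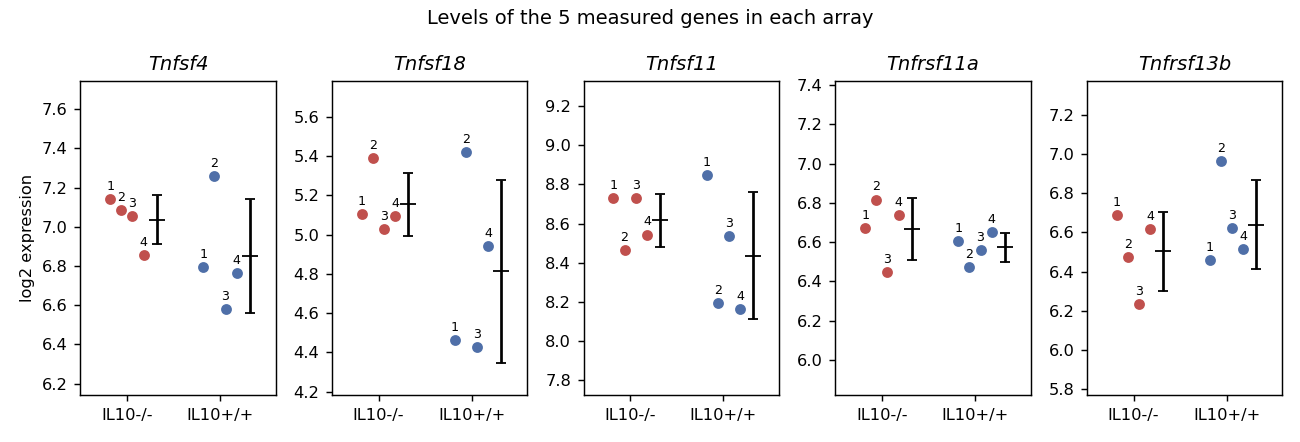
Log2 expression of Tnfsf4, Tnfsf18, Tnfsf11, Tnfrsf11a and Tnfrsf13b in each array, IL10-/- on the left and IL10+/+ on the right of each panel. Points are arrays with their replicate number, bars are the mean ± SD of 4 arrays, and each panel spans the same log2 range around its own mean. IL10+/+ replicate 2 is the top point for Tnfsf4, Tnfsf18 and Tnfrsf13b, and the groups overlap in all 5 panels.

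By limma, 0 of the 5 members passed at an adjusted p under 0.05, where 2 of all genes did (0.0286%), and 0 of 5 had an unadjusted p under 0.05, where 4.78% of all genes did. The groups were without overlap for 0 of 5 members, against 2.92% of all genes. The mean was higher in the arrays labelled IL10-/- for 4 of 5 members, against 50.8% of all genes, and the median difference was 0.18, against 0.00247 over all genes. The intervals allow differences in either direction, so equal expression was not shown.

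Signal limits these readings for 4 of the 5 genes. Olfactory receptor genes, which serve as a set little used outside the nose, had means from 2.87 at the 5th percentile to 7.07 at the 95th, with a median of 5.00. The mean of Tnfsf18 over 8 arrays (4.98) was above 50% of them, those of Tnfrsf11a (6.62) and Tnfrsf13b (6.57) above 89.6% and that of Tnfsf4 (6.94) above 93.5%. Probe sets differ in brightness for reasons of sequence, so these positions do not rank abundance. No detection call was used, and expression of these 4 genes in the sorted cells is not shown.

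Leaving out single arrays changed the size of the differences and no direction. Without IL10+/+ replicate 2, the log2 difference of Tnfsf18 was 0.54 (SE 0.15, limma, adjusted p = 0.432) and that of Tnfsf4 was 0.32 (SE 0.11, adjusted p = 0.626), while that of Tnfrsf13b was -0.03, that of Tnfsf11 was 0.10 and that of Tnfrsf11a was 0.06. Without IL10+/+ replicate 3, Tnfsf18 was at 0.21 and Tnfsf4 at 0.09. Without IL10+/+ replicate 1, Tnfsf11 was at 0.32 (adjusted p = 0.958) and Tnfsf18 at 0.22, and without IL10+/+ replicate 4 Tnfsf11 was at 0.09. Of the IL10-/- arrays, leaving out replicate 3 moved Tnfrsf11a to 0.17 and Tnfrsf13b to -0.05, and leaving out replicate 2 moved Tnfrsf11a to 0.05.

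**Figure D2:**
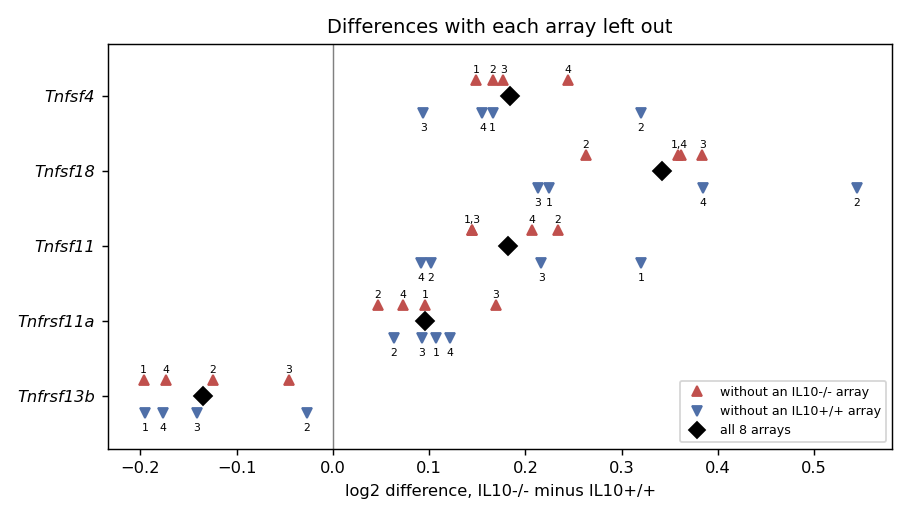
Log2 difference, IL10-/- minus IL10+/+, of each gene with all 8 arrays (diamonds) and with each array left out, numbered by replicate (upward triangles, an IL10-/- array; downward triangles, an IL10+/+ array). Every value for the 3 ligands and Tnfrsf11a lies right of 0 and every value for Tnfrsf13b left of it, and leaving out IL10+/+ replicate 2 takes Tnfsf18 to 0.54.

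The ligand genes also varied between arrays of the same label. After the mean of each group was subtracted, Pearson's r between Tnfsf4 and Tnfsf18 over the 8 arrays was 0.80 and Spearman's rho 0.69, the highest r of the 10 pairs of members. It rested largely on IL10+/+ replicate 2, since r was 0.33 over the other 7 arrays. Tnfsf18 and Tnfsf11 ran in opposite directions, with r = -0.80 and rho = -0.74, and r = -0.84 without that array. With group means kept, r between Tnfsf18 and Tnfsf11 was weaker, at -0.45 over the 8 arrays. In each group the array with the highest Tnfsf18 value, replicate 2 of either genotype, read lower for Tnfsf11 than at least 2 of the other 3. The arrays share amplification and hybridisation, so r is a description of these libraries only. The 3 arrays with the largest scores on the first principal component in either direction, IL10-/- replicate 2 and IL10+/+ replicates 2 and 4, were also the 3 lowest for Tnfsf11, at 8.46, 8.19 and 8.16. The part of array quality in this was not tested.

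**Figure D3:**
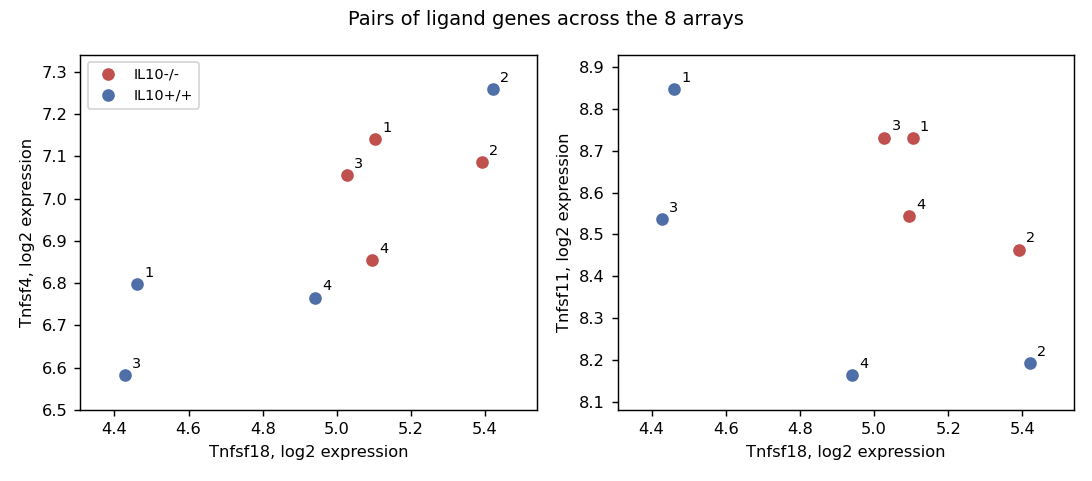
Log2 expression of Tnfsf18 (horizontal axes) against Tnfsf4 (left) and Tnfsf11 (right), with 1 point for each array, numbered by replicate and coloured by genotype label. Over the points as drawn, r with Tnfsf18 was 0.84 for Tnfsf4 and -0.45 for Tnfsf11. After group means were subtracted, which is not drawn, r was 0.80 and -0.80. Without IL10+/+ replicate 2 these became 0.33 and -0.84.

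Of the 3493 or 3492 other genes with a mean at or above the median, the 3 most like each member across the 8 arrays, after subtraction of group means, were as follows. For Tnfsf18 they were Edaradd (r = 0.99), Cpsf3 (0.96) and the interleukin 18 receptor chain Il18rap (0.95), and for Tnfsf4 Peg13 (0.96), Atxn7l3 (0.95) and Trps1 (0.94). For Tnfsf11 they were Kansl3, Xaf1 and Heatr5a (each 0.93). For Tnfrsf11a they were Olfr1414 (0.96), D430019H16Rik and Ccdc40 (each 0.94), and for Tnfrsf13b Lats1 (0.97), Ppifos (0.96) and Acaca (0.96). Each set is the top 3 of 3493 or 3492 genes over 8 arrays, so high r was selected for. Between 32 and 76 genes had r over 0.8 with each member. Without the 2 arrays in which the member lay farthest from its group mean, r was 0.98 for Edaradd with Tnfsf18 and 0.68 for Atxn7l3 with Tnfsf4.

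Of 47 ligands and receptors of the TNF superfamily, 11 were measured, including the 5 members. By limma 0 of the 11 passed the test (adjusted p = 0.999 for each), against 0.0286% of all genes. An unadjusted p under 0.05 was held by 0 of 11, against 4.78% of all genes. Among the ligands, Fasl, the Fas ligand that triggers death of target cells, was at 7.68 ± 0.26 in IL10-/- and 7.80 ± 0.08 in IL10+/+ (SD, n = 4 each), a difference of -0.11 (SE 0.13). Tnfrsf10b, the receptor of the death ligand TRAIL, spread most. It read 7.90, 6.96, 6.59 and 7.94 in the arrays labelled IL10-/-, against 7.88, 7.91, 8.18 and 7.27 in those labelled IL10+/+, a difference of -0.46 (SE 0.30). Its low values were IL10-/- replicates 2 and 3, and IL10-/- replicates 1 and 4 read like the IL10+/+ arrays. Osteoprotegerin, the soluble decoy that captures RANK ligand, is encoded by Tnfrsf11b, which differed by -0.09 (SE 0.13). Differences were 0.11 for the orphan receptor gene Tnfrsf19, -0.06 for the neurotrophin receptor gene Ngfr and 0.06 for Edar, the ectodysplasin receptor gene. The 11 genes had 6 positive differences, against 50.8% of all genes, and a median of 0.06.

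**Figure D4:**
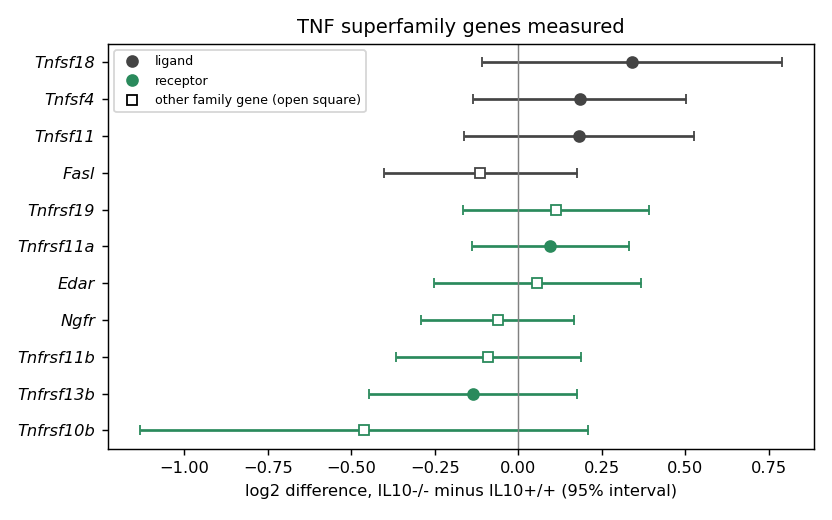
Log2 differences, IL10-/- minus IL10+/+, of the 11 measured TNF superfamily genes, with 95% intervals from limma. Filled circles are the 5 members and open squares the other family genes, ligands in grey and receptors in green. Every interval includes 0, and that of Tnfrsf10b is the widest.

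Downstream of the receptors, 17 of 39 genes for TRAF adaptors and proximal signalling were measured. Of these, 0 passed the adjusted test, against 0.0286% of all genes. Of the 17, 1 had an unadjusted p under 0.05, against 4.78% of all genes. The median difference was -0.10, with 6 of 17 positive, against 50.8% of all genes. The gene with the smallest p was Tnip1, a partner of the NF-kappaB inhibitor A20. Tnip1 read 9.53, 9.20, 9.42 and 9.56 in the arrays labelled IL10-/-, against 9.68, 9.70, 9.72 and 9.86 in those labelled IL10+/+. The groups did not overlap, which held for 1 of these 17 genes, against 2.92% of all genes. The difference was -0.31 (SE 0.11, limma, unadjusted p = 0.0148, adjusted p = 0.777). Tnfaip3, which encodes A20, differed by -0.32 (SE 0.16), Traf3ip2, an adaptor of interleukin 17 receptors, by 0.22 (SE 0.12), and Traf5, an adaptor of OX40, by -0.16 (SE 0.13). Of NF-kappaB and its inhibitors, 4 of 19 genes were measured and 0 passed, adjusted or unadjusted, against 0.0286% and 4.78% of all genes. The inhibitor gene Nfkbia differed by -0.15, the kinase gene Ikbke by -0.10, the NF-kappaB subunit gene Rel by 0.04 and the inhibitor-binding Nkiras1 by 0.03, with a median of -0.03.

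Other cells that carry these genes can enter a sorted fraction, so their markers were read in the same arrays. For B cells, which use TACI and BAFF receptor, 11 of 29 markers were measured. Of the 11, 0 passed the adjusted test, against 0.0286% of all genes, and 2 had an unadjusted p under 0.05, against 4.78%. A positive difference was held by 10 of 11 (median 0.14), against 50.8% of all genes. The summed linear signal of the B cell markers ran from 6585 to 9531 in the arrays labelled IL10-/- and from 4977 to 7685 in those labelled IL10+/+. Cd24a, also made by other cells, differed by 1.53 (SE 0.41, limma, adjusted p = 0.650), Cd180 by 0.51 (SE 0.19, adjusted p = 0.873), the B cell receptor component Cd79b by 0.27 and the heavy chain gene Ighm by 0.16. Ms4a1 and Cd79a were not analysed here. Of plasma cell markers, 6 of 8 were measured, 4 with a positive and 2 with a negative difference (median 0.13). Differences ran from Sdc1 at -0.11 to Slamf7 at 0.27. Of the 6, 0 passed, adjusted or unadjusted, against 0.0286% and 4.78% of all genes. The summed signal of these markers was 1941 to 2515 in IL10-/- and 1786 to 2183 in IL10+/+.

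For dendritic and antigen-presenting cells, the known source of OX40 ligand and GITR ligand, 2 of 23 markers were measured, Batf3 at 0.28 (SE 0.13) and Ccr7, also a T cell gene, at -0.49 (SE 0.27). Their summed signal was 1047 to 1812 in IL10-/- and 1222 to 2589 in IL10+/+. Itgax, Flt3 and the class II genes were not analysed here, so the share of these cells was not measured. Of macrophage, monocyte and granulocyte markers 10 of 25 were measured, 4 with a positive and 6 with a negative difference (median -0.06), from Lyz1 at -0.42 to Ly6c2 at 0.23, and a summed signal of 1862 to 2506 in IL10-/- and 1674 to 2564 in IL10+/+. Of stromal and endothelial markers, a source of RANK ligand in lymph nodes, 8 of 23 were measured, 1 with a positive and 7 with a negative difference (median -0.09), from Lum at -0.11 to Madcam1 at 0.04, and a summed signal of 1435 to 1631 in IL10-/- and 1457 to 1718 in IL10+/+. In these 3 lists 0 genes passed by limma, adjusted or unadjusted, against 0.0286% and 4.78% of all genes. Of all genes, 50.8% had a positive difference. A linear sum weighs its brightest markers most. In the B cell, plasma cell, antigen-presenting, myeloid and stromal lists these were Ighm (mean 12.05), Irf4 (8.93), Ccr7 (10.43), Ly6c2 (9.80) and Pecam1 (9.89). The sums therefore do not measure the share of these cells. The part of other cells in the members' values was not tested.

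Of T cell genes, the lineage list had 6 of 24 measured, 2 with a positive and 4 with a negative difference (median -0.09), from Zap70 at -0.15 to Themis at 0.21, and a summed signal of 10914 to 12121 in IL10-/- and 11631 to 12480 in IL10+/+. The Treg list had 8 of 22 measured and a median of 0.02, Il10 having the largest difference. The 17 measured of 28 activation and effector genes had 10 positive and 7 negative differences and a median of 0.09. Differences ran from Egr2 at -0.27 to Gzmb at 1.30, with Il1r1 at 0.91, Havcr2 at 0.86, Il17a at 0.57 and Ifng at 0.50. Of all genes, 50.8% had a positive difference. In these 3 lists 0 genes passed the adjusted test by limma, against 0.0286% of all genes. At an unadjusted p under 0.05 were 0 of 6, 1 of 8 and 5 of 17, against 4.78% of all genes. The mean of the activation list was 7.68 in IL10+/+ replicate 2, against 7.35 to 7.45 in the other IL10+/+ arrays and 7.57 to 7.75 in the IL10-/- arrays. That array was also the highest for Tnfsf4, Tnfsf18 and Tnfrsf13b. Over the 8 arrays, with group means subtracted, the activation list's mean had r = 0.61 with Tnfsf4, 0.60 with Tnfsf18 and 0.58 with Tnfrsf13b, but -0.45 with Tnfsf11 and -0.62 with Tnfrsf11a. The B cell list's mean had r = 0.54 with Tnfsf18, 0.38 with Tnfrsf13b, 0.28 with Tnfrsf11a, 0.17 with Tnfsf4 and -0.59 with Tnfsf11. Other lists had larger values, among them the Treg list (r = -0.70) and the antigen-presenting list (-0.71) with Tnfrsf11a and the T cell lineage list (0.59) with Tnfrsf13b. No r of a list was computed without IL10+/+ replicate 2. The activation and B cell lists were picked for mention after the values of all 12 were seen, and what they share with the members was not tested.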

How the data were processed

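The deposited log2 values were made by the authors with RMA background correction, a GC correction and mean summarization of probes using Partek software, as the design text of the series states. Affymetrix Expression Console is a further tool named, per the submitters' processing notes. No source used here gives their versions or a genome build. Of 16378 probe sets, 7358 had 1 gene in the platform annotation, 456 several and 8564 none. Symbols were updated through Entrez identifiers to RefSeq (GRCm38.p6, 7310 matched), and the probe set with the highest mean was kept for each gene, leaving 6986 genes, 99.6% of those placed being on chromosomes 1 and 10 to 15. The 4 arrays per group were compared with limma 3.58.1 (lmFit and eBayes) in R 4.3.3, without a filter, with Benjamini-Hochberg adjustment over all genes at a threshold of 0.05. The fit was also run on simulated data with known differences and errors drawn independently for each gene. The simulated differences were larger than those of the members, so that run does not bear on them. Differences are IL10-/- minus IL10+/+. An exact permutation test used the 70 assignments of arrays. Precision is limited by the number of arrays.

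The members and the 12 gene lists (282 genes, 100 measured) were chosen with earlier results of these data known. Named were all measured TNF family genes, from each other list the called genes and up to 4 of smallest p, for other cell types also up to 4 of highest mean, Il10, Ctla4 and Ikzf2, and the 3 genes most like each member. Other genes were chosen after their values were seen. Alternatives were quantile normalization, median centring, averaged probe sets per gene, a filter on low signal, trend and robust settings, array weights, an equal-variance test, the replicate number as a block, and arrays left out. The main test did not pair arrays by replicate number. The correlations of same-numbered arrays given below cannot exclude a batch that they share.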

Additional observations from a re-analysis of the deposited data

Results flagged for a closer look

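Among the 73 genes selected by the rule for named genes, not all of which are named in the text, 146 groups of 4 arrays were screened for an array far from the other 3 by Dixon's criterion, and 8 were found, where chance gives about 1 in 20. None was a TNF ligand or receptor. IL10-/- replicate 2 was lowest of its group for Ikbke (9.03), Ighm (11.47), Cd28 (9.77) and Ctla4 (10.88). Socs2 was highest in IL10-/- replicate 3 (9.03). Derl3 was lowest in IL10+/+ replicate 1 (6.71). Ppifos (7.40) and Acaca (7.78), both listed as most like Tnfrsf13b, were highest in IL10+/+ replicate 2.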

How the results depend on the processing

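All 5 members kept their direction and stayed above the threshold under every alternative run. With arrays left out, the log2 differences ran from 0.09 to 0.32 for Tnfsf4, 0.21 to 0.54 for Tnfsf18, 0.09 to 0.32 for Tnfsf11, 0.05 to 0.17 for Tnfrsf11a and -0.20 to -0.03 for Tnfrsf13b, and the lowest adjusted p by limma over all alternatives was 0.432. The filter on low signal kept Tnfsf11 alone of the members. Of the 4 TNF pathway lists 0 genes passed under any alternative. The count over all genes was 2, and 1 (Ctse) under median centring, array weights, the equal-variance test, the replicate block and without both arrays that stood apart, IL10-/- replicate 2 and IL10+/+ replicate 4. It was 3 with trend and robust settings, and 1 to 4 with single arrays left out, 4 without IL10-/- replicate 3. The cause was not tested. Same-numbered arrays had r of -0.32 to 0.05 between their deviations, and 0 of 4 IL10-/- arrays correlated best with their own number. With the replicate block the difference of Tnfsf18 was 0.34 (SE 0.15, against 0.20 without the block, unadjusted p = 0.051, adjusted p = 0.999 by limma).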
